A study of Mus musculus with 2 samples.

Results

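Growth factor receptors carry the signals by which blood-forming cells survive, divide and choose a lineage, and 9 genes encoding them were followed here across the bone marrow of Col1a1fspKO and WT mice. They were taken by name: Csf1r, Csf2ra, Csf2rb, Csf3r, Kit, Flt3, Epor, Il6ra and Il1r2, which are 9 of the 13211 genes listed in either library and were all listed in both. Csf1r, Kit and Flt3 are receptor tyrosine kinases, for macrophage colony-stimulating factor, stem cell factor and Flt3 ligand. Csf3r (granulocyte colony-stimulating factor) and Epor (erythropoietin) encode cytokine receptors that work as pairs of the same chain, whereas Csf2ra and Il6ra encode chains that bind a ligand and signal through a shared partner. Csf2rb encodes such a partner, the beta chain common to the receptors for granulocyte-macrophage colony-stimulating factor, interleukin-3 and interleukin-5. Il1r2 encodes a decoy that binds interleukin-1 without passing on a signal. In marrow these receptors are known as marks of lineage, Csf1r for monocytes, Csf3r for neutrophils, Epor for red cell precursors, and Kit and Flt3 for immature cells.

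The Col1a1fspKO group carried Fsp1-Cre together with Col1a1flox/flox, so that Col1a1 was deleted in cells in which the Fsp1 (S100a4) promoter had been active. The WT group consisted of littermates that were Cre-negative but also carried Col1a1flox/flox, and no mouse of either group was treated. Marrow was flushed from femur and tibia of mice aged 2 months, and the marrow of 2 mice per genotype was pooled, sorted for live cells and made into 1 library with 10x Genomics 3′ chemistry. There was therefore no replicate and no test between genotypes, and every interval below is a 95% interval that covers counting error only, not the spread between mice.

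The Col1a1fspKO library held 1309 cells with 8647722 UMIs (unique molecular identifiers, each standing for a captured mRNA molecule), and the WT library held 1169 cells with 8624469 UMIs. Col1a1fspKO cells had a median depth of 4954 UMIs and WT cells of 5534, no cell lay below 2540, and 2 cell barcodes were found in both libraries. Col1a1 itself had 3 UMIs in Col1a1fspKO and was not listed in WT, which checks neither label, because a 3′ tag need not fall in the floxed exons and these cells hardly express the gene. Cells were placed in gates by the markers of 8 lineages, none of them a receptor studied here, and a name such as erythroid-like means only that the cell carried those markers. Of 2361 gated cells, 107 won their lineage by a small margin (a scaled score difference of 0.1 to 0.2), and 98 of 987 neutrophil-lineage cells lay within 1.5-fold of the Retnlg threshold. Levels are given as UMIs per 1000000 UMIs of the gate (CPM). They are compared between gates and between libraries, not between genes.

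Over all cells, the 9 receptors were close in level between the genotypes. None of them was past 1.5-fold in either direction, a size that 9.48% of the 11109 genes with at least 20 UMIs reached. Csf2ra had 699 UMIs in Col1a1fspKO against 623 in WT, a ratio of 1.12 (1.003 to 1.25), the only one of the 9 whose interval excluded 1, as did the intervals of 18.1% of all genes. That interval included 1 in 3 of the 4 other settings that gave one, among them doublets left out (0.9996 to 1.25), where that of Csf3r excluded it (1.0004 to 1.36). Csf3r had 368 and 320 UMIs, a ratio of 1.15 (0.985 to 1.34), and Csf2rb had 276 and 257, a ratio of 1.07 (0.900 to 1.27). Those 3 receptors were slightly higher in Col1a1fspKO, as were Flt3 with 72 against 58 UMIs and Il1r2 with 47 against 44. Csf1r had 286 UMIs in Col1a1fspKO against 304 in WT, a ratio of 0.938 (0.796 to 1.11), and Il6ra had 219 and 249, a ratio of 0.877 (0.728 to 1.06). Epor, with 109 against 116 UMIs, and Kit, with 60 against 72, were on the same side. The mix of cells differed between the libraries, with 174 Retnlg-high neutrophils (13.3% of cells) in Col1a1fspKO and 90 (7.70%) in WT. When both libraries were weighted to the same mix of gates, the Csf3r ratio was 1.03 and the Csf2ra ratio 1.09. The Il1r2 ratio was then 0.910, below 1, while each of the other receptors stayed on its side of 1.

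**Figure D1:**
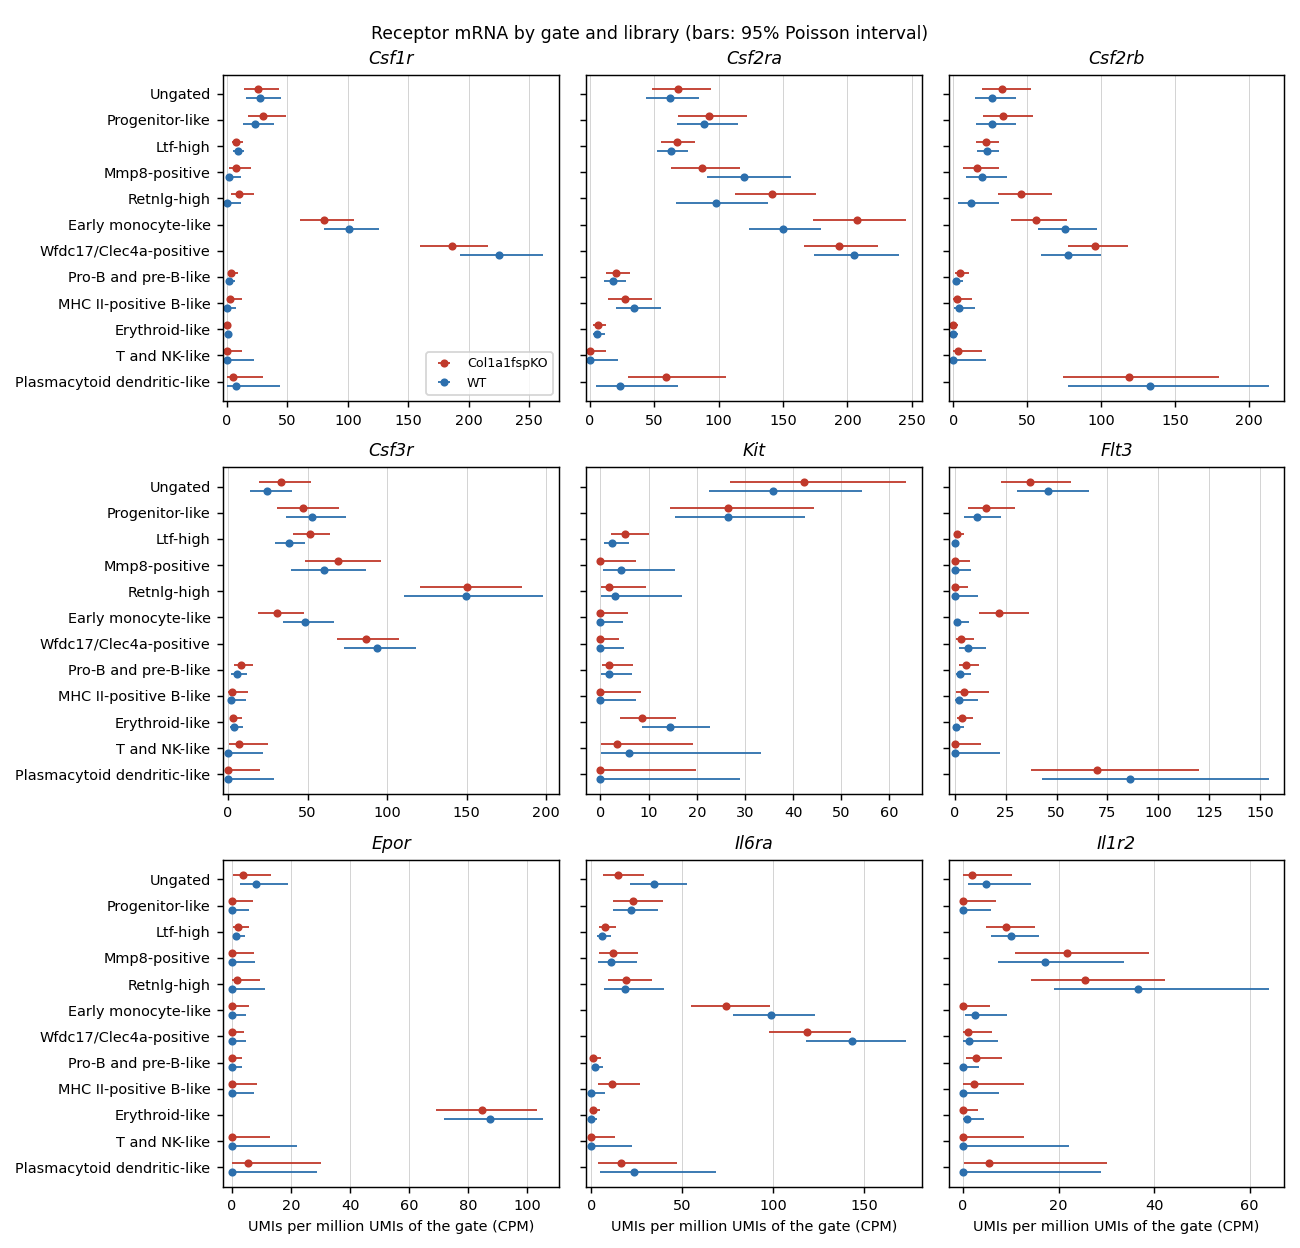
Level of each receptor (UMIs per 1000000 UMIs of the gate, x axis) in 12 gates (y axis) for Col1a1fspKO (red) and WT (blue), with bars for the 95% Poisson interval. Each panel has its own x scale; Epor stood above the other gates in erythroid-like cells only, and Csf1r and Il6ra in the 2 monocyte gates.

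A T and NK-like gate served as a background, since most of these receptors are not known from its cells, though Il6ra is known on some T cells. It held 57 cells in Col1a1fspKO and 31 in WT, at median depths of 4372 and 4175 UMIs per cell. A UMI of any of the 9 receptors was found in 5.26% of these cells in Col1a1fspKO and in 3.23% in WT. Csf1r, Csf2ra, Flt3, Epor, Il6ra and Il1r2 had no UMI there, and a count of 0 in 57 cells allows a share of up to 5.26% of cells with a UMI (3 counts of the total), which limits detection and not expression. By contrast, 95.1% of Wfdc17/Clec4a-positive monocytes in Col1a1fspKO and 97.3% in WT carried a UMI of at least 1 of the 9.

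Most Csf1r UMIs lay in the monocyte gates. It was highest in monocytes positive for Wfdc17, Clec4a1 or Clec4a3, at 186 CPM (159 to 216) in 164 Col1a1fspKO cells and 225 CPM (193 to 261) in 147 WT cells. Early monocyte-like cells, the monocyte-lineage cells in which those 3 markers summed to under 500 CPM, stood at 80.4 CPM in Col1a1fspKO and at 101 CPM in WT, and progenitor-like cells, which carry Mpo and Elane, had 30.2 and 23.4 CPM. The level in the Wfdc17/Clec4a-positive gate was 2.31 times (1.69 to 3.22) that of early monocyte-like cells in Col1a1fspKO and 2.23 times (1.69 to 2.94) in WT. Early monocyte-like cells were in turn 2.66 times (1.5 to 5.0) and 4.32 times (2.47 to 8.08) above progenitor-like cells. The same order thus held in both libraries. Progenitor-like cells were 3.21 times (1.85 to 5.59) above Ltf-high neutrophils over both libraries together, and from there on neighbours in the order did not differ beyond counting error. Neutrophil gates carried little Csf1r, with 24 UMIs over 539 cells in Col1a1fspKO and 18 over 448 cells in WT.

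Between genotypes, Csf1r in Wfdc17/Clec4a-positive cells was 0.826 times (0.665 to 1.03) as high in Col1a1fspKO as in WT, from 174 and 171 UMIs. In early monocyte-like cells the ratio was 0.795 (0.549 to 1.14). A UMI was found in 61.0% of Wfdc17/Clec4a-positive Col1a1fspKO cells and 66.7% of WT cells, and after every cell was thinned to 2500 UMIs in 39.0% and 42.9%. Both gates were lower in Col1a1fspKO, but no interval excluded equal levels. Raising the margin between lineages to 0.2 gave a ratio of 0.801 (0.643 to 0.997) in the Wfdc17/Clec4a-positive gate.

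Il6ra, the interleukin-6 binding chain (chromosome 3, 89864059 to 89913196, GRCm38), followed the same gates. Its level was 119 CPM (97.6 to 143) in Wfdc17/Clec4a-positive cells of Col1a1fspKO and 143 CPM (118 to 173) in WT, 1.60 times (1.13 to 2.29) and 1.46 times (1.08 to 1.97) that of early monocyte-like cells. Early monocyte-like cells were deeper, with medians of 7686 and 7114 UMIs against 5535 and 5058. Per cell these gates were close in Col1a1fspKO, with 111 Il6ra UMIs over 164 cells against 48 over 77. In WT the order was reversed per cell, with 109 over 147 against 77 over 98. Progenitor-like cells were lower again, at 22.6 and 21.8 CPM. Csf1r was among the 3 genes whose pattern was most like that of Il6ra, with a Pearson r of 0.933 over 22 points (11 gates in 2 libraries). The points share depth and cells, so r is given as a description. In Wfdc17/Clec4a-positive cells the Il6ra ratio of Col1a1fspKO to WT was 0.827 (0.629 to 1.09), and in early monocyte-like cells it was 0.753 (0.514 to 1.09). Il6st, which encodes the shared signalling partner gp130, had 111 and 88 UMIs over all cells and was highest in early monocyte-like cells.

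Csf3r transcripts spanned neutrophils and monocytes. The gene lies on chromosome 4 (126024550 to 126044440). In neutrophils its level in CPM was highest in the last gate of the order of maturation genes. Col1a1fspKO had 51.7 CPM in Ltf-high cells, 69.2 CPM in Mmp8-positive cells and 150 CPM (120 to 185) in Retnlg-high cells. In WT the same gates had 38.1, 60.0 and 150 CPM (111 to 198). Retnlg-high cells thus held 2.90 times (2.12 to 3.97) the Csf3r level of Ltf-high cells in Col1a1fspKO and 3.93 times (2.66 to 5.78) in WT. The step from Ltf-high to Mmp8-positive cells, 1.34 (0.873 to 2.01) and 1.58 (0.973 to 2.49), was within counting error in each library, though not over both together (1.45, 1.06 to 1.96). Csf3r UMIs per cell did not rise at that step, with 81 over 231 and 35 over 128 cells, and in WT 65 over 241 and 28 over 112. Median depth fell over these gates from 5368 to 3148 UMIs per cell in Col1a1fspKO and from 6327 to 3496 in WT. Progenitor-like cells already carried 47.2 and 53.0 CPM, which did not differ from Ltf-high cells beyond counting error over both libraries together. They were deeper, with medians of 14521 and 15143.5 UMIs, and had 25 Csf3r UMIs over 35 cells and 34 over 40. Per cell this was more than in Ltf-high, Mmp8-positive or Retnlg-high cells. The Wfdc17/Clec4a-positive monocytes were second in order, with 86.5 CPM in Col1a1fspKO and 93.4 CPM in WT, and stood 2.80 times (1.70 to 4.82) and 1.92 times (1.28 to 2.93) above early monocyte-like cells. Monocyte cells with a UMI of both Csf1r and Csf3r numbered 48 of 241 in Col1a1fspKO and 51 of 245 in WT.

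In the Retnlg-high gate the Csf3r level did not differ between genotypes beyond counting error, with 88 UMIs over 174 cells in Col1a1fspKO, 49 UMIs over 90 cells in WT, and a ratio of 1.0 (0.699 to 1.45). After thinning, 32.2% of Retnlg-high cells in each library carried a UMI. In early monocyte-like cells Csf3r had 20 UMIs in Col1a1fspKO against 38 in WT, a ratio of 0.636 (0.351 to 1.12) that is past 1.5-fold, as was the ratio of 18.8% of genes in that gate. Under other settings this ratio ran from 0.536 to 1.02, the highest with cells grouped by cluster.

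Il1r2, the interleukin-1 decoy (chromosome 1, 40074079 to 40125231), was sparse and lay mostly in neutrophils. It overlaps Gm37347 on the same strand in the annotation, so reads of this pair could not be told apart with certainty, and it lies opposite Gm16894. Among the other receptors, Csf2rb overlaps Mir7676-2 on its strand, Il6ra lies opposite Gm42809 and Flt3 opposite Gm26597. Of the Il1r2 UMIs, 40 of 47 in Col1a1fspKO and 37 of 44 in WT lay in neutrophil gates. It had no UMI in progenitor-like cells of either library, 8.94 CPM in Ltf-high cells of Col1a1fspKO and 9.96 CPM in those of WT, and 25.6 CPM (14.3 to 42.2) and 36.7 CPM (19.0 to 64.1) in Retnlg-high cells. Mmp8-positive cells had 21.7 and 17.1 CPM, and Retnlg-high cells were not above them beyond counting error, at 1.51 times (0.811 to 2.88) over both libraries. In CPM the rise from Ltf-high to Retnlg-high was 2.86-fold (1.29 to 6.40) in Col1a1fspKO and 3.68-fold (1.60 to 8.18) in WT. Depth fell between these gates, and per cell the rise was smaller. Il1r2 had 14 UMIs over 231 Ltf-high and 15 over 174 Retnlg-high cells in Col1a1fspKO, and in WT 17 over 241 and 12 over 90. Its ratio between genotypes in Retnlg-high cells was 0.698 (0.305 to 1.63), from 15 and 12 UMIs. Il1rn, which encodes the soluble antagonist of the interleukin-1 receptor, was also highest in Retnlg-high cells, at 151 CPM over both libraries. Il1r1, the receptor that does signal, had 7 and 4 UMIs over all cells.

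**Figure D2:**
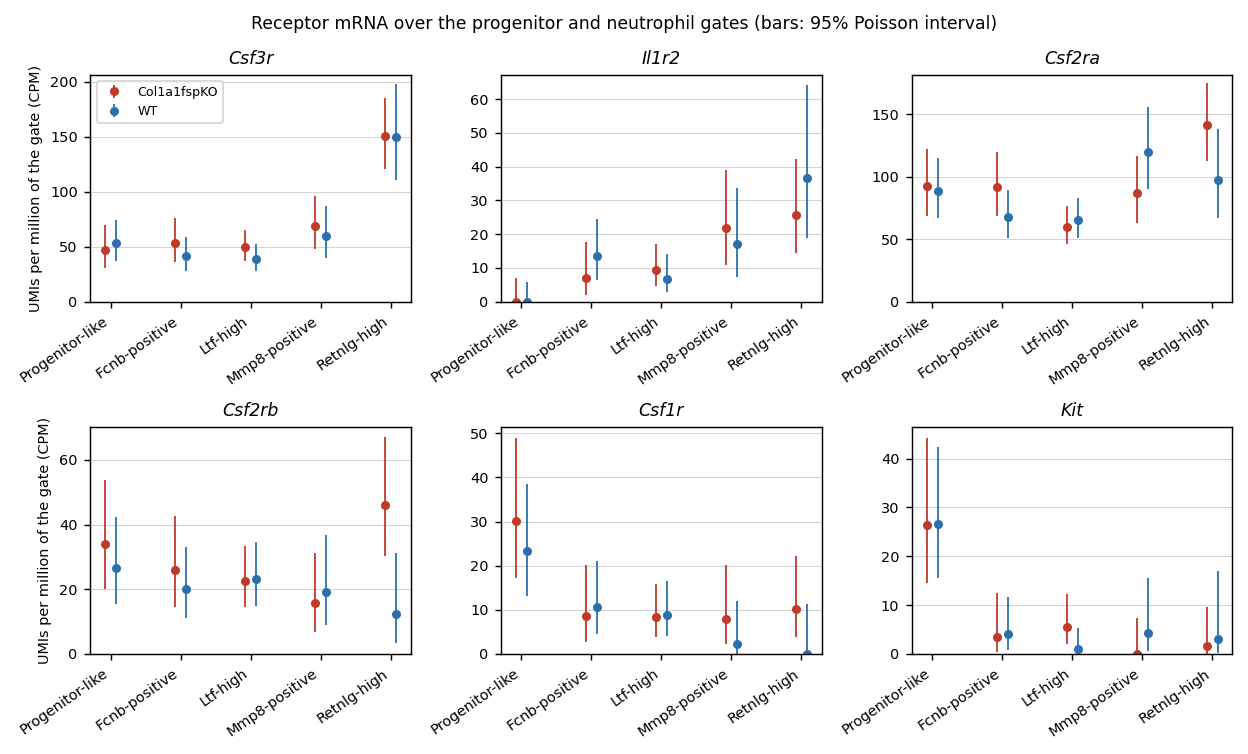
Levels of 6 receptors (y axis, UMIs per 1000000 UMIs of the gate) in progenitor-like cells and 4 neutrophil gates (x axis) of Col1a1fspKO (red) and WT (blue), with bars for the 95% Poisson interval. Here cells with Fcnb were separated before those with Ltf; Csf3r and Il1r2 were highest in Retnlg-high cells, Kit in progenitor-like cells, and Csf2rb differed between the genotypes in Retnlg-high cells.

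The neutrophil gates were ordered by granule genes, from Fcnb and Ltf to Mmp8 and Retnlg. Because the Ltf threshold came before that of Fcnb, only 10 cells were left as Fcnb-positive, so the order was also computed with Fcnb taken before Ltf, an alternative chosen after seeing the data. This gave 134 Fcnb-positive and 348 Ltf-high cells, with 46.7 and 44.2 CPM of Csf3r and 10.5 and 8.07 CPM of Il1r2 over both libraries, so neither receptor differed between these early gates beyond counting error.

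Csf2ra and Csf2rb encode the 2 chains of the granulocyte-macrophage colony-stimulating factor receptor. Csf2ra (chromosome 19, 61223957 to 61228429) was found across the myeloid gates. Its level in Wfdc17/Clec4a-positive cells was 193 CPM (166 to 224) in Col1a1fspKO against 205 CPM (174 to 240) in WT, and in early monocyte-like cells 207 CPM (174 to 245) and 150 CPM (124 to 180). The Wfdc17/Clec4a-positive gate was 0.933 times (0.742 to 1.18) the early monocyte-like gate in Col1a1fspKO and 1.37 times (1.07 to 1.76) in WT, so in CPM the gates differed beyond counting error in WT only. Per cell the Wfdc17/Clec4a-positive gate was lower in both libraries, with 181 UMIs over 164 cells against 134 over 77. In WT it had 156 over 147 against 117 over 98. In neutrophils of Col1a1fspKO it was 67.7 CPM in Ltf-high, 87.0 CPM in Mmp8-positive and 142 CPM in Retnlg-high cells. In WT the same gates had 63.3, 120 and 97.8 CPM, so the highest neutrophil gate differed between the libraries. Over both libraries together Retnlg-high cells were not above Mmp8-positive cells beyond counting error, at 1.22 times (0.929 to 1.62). Per cell, Ltf-high and Retnlg-high cells of Col1a1fspKO were close, with 106 UMIs over 231 cells and 83 over 174. In WT the Retnlg-high cells were lower per cell, with 108 over 241 and 32 over 90. Csf2ra was 20.4 and 18.1 CPM in pro-B and pre-B-like cells and 6.0 and 5.62 CPM in erythroid-like cells. Spi1, which encodes the myeloid factor PU.1, was among the 3 genes with the most similar pattern, with r of 0.933 over the same 22 points.

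Csf2ra in early monocyte-like cells was 1.38 times (1.07 to 1.79) as high in Col1a1fspKO as in WT, from 134 UMIs over 77 cells and 117 UMIs over 98 cells. The share of these cells with a UMI was 68.8% and 65.3%, and after thinning 33.8% and 26.5%. An interval that excluded 1 was found for 8.38% of the genes in this gate. The ratio was 1.30 to 1.97 under 8 other settings, the highest of them with thinned cells, and the interval excluded equal levels in each of the 7 that gave one. In the Wfdc17/Clec4a-positive cells next to them the ratio was 0.942 (0.756 to 1.17). In Retnlg-high cells Csf2ra had 83 UMIs in Col1a1fspKO against 32 in WT, a ratio of 1.45 (0.952 to 2.25). It fell to 1.14 (0.702 to 1.86) in cells with at least 3000 UMIs and rose to 2.14 (1.12 to 4.50) with cells grouped by cluster. In Mmp8-positive cells Csf2ra went the other way, with 44 and 56 UMIs, a ratio of 0.725 (0.477 to 1.09).

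Csf2rb (chromosome 15, 78325752 to 78353847) had its highest level in basophil-like cells, at 188 CPM (93.9 to 337) in only 8 Col1a1fspKO cells and 292 CPM (201 to 409) in 19 WT cells. Interleukin-3, which acts through this chain, is a known growth factor of basophils. Among gates with at least 20 cells in each library, plasmacytoid dendritic-like cells led. They had 119 CPM in Col1a1fspKO (74.3 to 180) against 133 CPM in WT (77.6 to 213), followed by the Wfdc17/Clec4a-positive monocytes at 96.2 and 77.6 CPM, from which they did not differ beyond counting error. Of the alpha chain Csf2ra, plasmacytoid dendritic-like cells had 11 UMIs (59.3 CPM) in Col1a1fspKO and 3 (23.5 CPM) in WT, which did not differ from Ltf-high neutrophils beyond counting error over both libraries together. Csf2rb2, the beta chain specific to interleukin-3 and a close copy of Csf2rb on the same chromosome (78282507 to 78305721), had 53 and 54 UMIs and was also highest in basophil-like and plasmacytoid dendritic-like cells. Reads could be divided between these copies, so levels of either are uncertain to that extent.

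In Retnlg-high neutrophils Csf2rb had 27 UMIs in 25 of 174 Col1a1fspKO cells and 4 UMIs in 4 of 90 WT cells. This made 46.1 CPM (30.4 to 67.0) against 12.2 CPM (3.33 to 31.3) and a ratio of 3.77 (1.31 to 14.8), the widest gap between genotypes among pairs of receptor and gate with at least 20 UMIs. A ratio past 1.5-fold was common in this gate, with 23.8% of 2592 genes, and an interval that excluded 1 was found for 10% of them. The Col1a1fspKO cells of the gate were shallower, and 99 of 174 had at least 3000 UMIs against 82 of 90 in WT. Among those deeper cells Csf2rb had 15 and 3 UMIs, a ratio of 4.0 (1.13 to 21.6). With cells grouped by cluster it had 21 and 3 UMIs, and the interval of the ratio, 2.58 (0.769 to 13.5), included equal levels. Monocyte markers gave 11 UMIs in the Col1a1fspKO cells and 5 in the WT cells of this gate over 7 markers. Of 6 basophil markers, Cpa3, Ms4a2, Fcer1a and Gata2 had none, and Prss34 and Mcpt8 had 9 and 5 UMIs in sum. In the Mmp8-positive cells that precede this gate Csf2rb had 8 and 9 UMIs.

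Both chains were found in the same cell in 68 of 241 monocyte cells of Col1a1fspKO and 65 of 245 of WT. In neutrophil gates such cells numbered 24 of 539 and 20 of 448. Such counts rise with depth, and free RNA or doublets can add to them.

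PU.1 and GATA factors are known regulators of myeloid and erythroid genes, and the promoters below were searched for short motifs because Csf2ra and Csf3r were highest in myeloid gates and Epor in the erythroid-like gate. RefSeq promoters (GRCm38.p6, 250 bases before to 50 after the start site) were in the table used for 7 of the 9 genes, Csf1r and Csf2rb not among them. Capitals mark GAGGAA, a PU.1 core, in Csf3r (chr4:126024409-126024708, plus strand, 86 bases before the start site) and Csf2ra (chr19:61228369-61228668, minus strand, 14 and 8 bases before it), and TTATCT, the reverse complement of the GATA motif AGATAA, in Epor (chr9:21963527-21963826, minus strand, 54 bases before it).
Csf3r: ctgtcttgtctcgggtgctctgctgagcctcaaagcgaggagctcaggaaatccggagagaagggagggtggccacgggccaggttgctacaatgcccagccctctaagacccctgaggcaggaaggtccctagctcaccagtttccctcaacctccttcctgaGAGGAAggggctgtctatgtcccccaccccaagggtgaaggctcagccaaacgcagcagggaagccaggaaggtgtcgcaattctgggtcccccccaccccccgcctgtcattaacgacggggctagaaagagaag
Csf2ra: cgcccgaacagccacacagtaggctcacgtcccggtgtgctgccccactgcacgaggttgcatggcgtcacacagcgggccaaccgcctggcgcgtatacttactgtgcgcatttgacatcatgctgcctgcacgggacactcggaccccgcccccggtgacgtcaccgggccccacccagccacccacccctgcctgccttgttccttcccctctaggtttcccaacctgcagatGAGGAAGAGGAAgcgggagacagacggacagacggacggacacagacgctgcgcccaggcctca
Epor: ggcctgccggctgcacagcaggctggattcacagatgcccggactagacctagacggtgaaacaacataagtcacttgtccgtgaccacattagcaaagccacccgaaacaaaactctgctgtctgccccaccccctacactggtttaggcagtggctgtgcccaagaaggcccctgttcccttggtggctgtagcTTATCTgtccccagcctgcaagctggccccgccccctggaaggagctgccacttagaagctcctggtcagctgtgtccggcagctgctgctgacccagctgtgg
Searched on both strands, GAGGAA was in a promoter of 4 of the 7 genes (Csf2ra, Csf3r, Kit and Il6ra) against 31.3% of all 27025 genes in the table, or 28.3% of its 32851 promoters of this length. AGATAA was in 2 of the 7 (Epor and Il6ra) against 12.7% of genes and 11.2% of promoters, TGTGGT (RUNX) in Epor alone against 18.9% and 16.8%, and TTGCNNAA (C/EBP) in none against 12.2% and 10.8%. A match is a string of letters and not a shown binding site.

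Epor (chromosome 9, 21958897 to 21963506) was the receptor most bound to a single gate. Erythroid-like cells held 90.8% of its UMIs in Col1a1fspKO and 94.0% in WT, and 13.5% and 14.5% of all UMIs of these libraries. The level there was 84.9 CPM (69.0 to 103) from 99 UMIs in Col1a1fspKO and 87.5 CPM (71.8 to 106) from 109 UMIs in WT, a ratio of 0.970 (0.732 to 1.29). A UMI was found in 59.6% and 61.9% of erythroid-like cells at median depths of 9312 and 11434 UMIs, and after thinning in 14.1% and 14.4%. No UMI was found in progenitor-like or monocyte gates of either library. The 3 genes most like Epor in pattern were Aqp1, which encodes a water channel of red cells, Gm867 and Nxpe2, with r from 0.987 to 0.988.

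Kit (chromosome 5, 75574916 to 75656722) was found in few cells, 48 of the Col1a1fspKO library and 53 of the WT library. In progenitor-like cells its level was 26.4 CPM (14.4 to 44.3) in Col1a1fspKO against 26.5 CPM (15.4 to 42.5) in WT, from 14 and 17 UMIs, and the ratio was 0.996 (0.454 to 2.15). It stood 5.17 times (2.02 to 14.2) and 11.3 times (3.69 to 46.2) above Ltf-high neutrophils. Neither monocyte gate had any Kit UMI. In basophil-like cells Kit had 1 UMI in Col1a1fspKO and 5 in WT, or 17.1 CPM (0.433 to 95.3) and 44.2 CPM (14.3 to 103). Among gates with at least 20 cells in each library, erythroid-like cells were next, with 10 UMIs (8.57 CPM) in Col1a1fspKO and 18 (14.4 CPM) in WT, a ratio of 0.594 (0.245 to 1.36) in a gate where 17.9% of genes were past 1.5-fold. With cells grouped by cluster no ratio could be computed there, because at least 1 library then had no Kit UMI. In this gate 11 cells had UMIs of both Kit and Epor, out of 20 with Kit and 119 with Epor.

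Flt3 (chromosome 5, 147330741 to 147400489) was highest in plasmacytoid dendritic-like cells, which depend on Flt3 ligand for their development. These had 70.1 CPM (37.3 to 120) from 13 UMIs in Col1a1fspKO and 86.2 CPM (43.0 to 154) from 11 UMIs in WT, a ratio of 0.813 (0.336 to 2.0). The level was 4.64 times (1.78 to 12.9) and 7.89 times (2.79 to 24.0) that of progenitor-like cells. No UMI of Flt3 was found in the Mmp8-positive and Retnlg-high neutrophils of either library. Flt3l, which encodes the ligand, was highest in the T and NK-like gate at 30.6 CPM over both libraries.

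In early monocyte-like cells Flt3 had 14 UMIs in 8 Col1a1fspKO cells, 5 of them in a single cell, and 1 UMI in 1 WT cell, short of the minimum of 20 UMIs. The ratio of 16.9 has an interval from 2.57 to 715 and moved to 3.55 (1.21 to 12.6) when cells without a clear lineage were gated too. Of the 8 Col1a1fspKO cells, 3 also carried Cd209a, a gene of dendritic cells, with 25 of its 44 UMIs in the gate, and the single WT cell carried 9 of 10. The 8 cells also held 10 UMIs of the plasmacytoid dendritic marker Siglech, and the WT cell 0. Their median depth was 11242.5 UMIs, against 7686 for all Col1a1fspKO cells of the gate. Over the 4 conventional dendritic markers listed, the gate held 58 UMIs (89.7 CPM) in Col1a1fspKO and 12 (15.4 CPM) in WT, with Clec9a and Zbtb46 at 0 in WT, and 6 and 1 cells had at least 2 of these markers. In the Wfdc17/Clec4a-positive gate the same markers went the other way, with 10 UMIs (10.7 CPM) in Col1a1fspKO and 55 (72.4 CPM) in WT. Over the 6 plasmacytoid dendritic markers, early monocyte-like cells held 64 UMIs (99.0 CPM) in Col1a1fspKO and 33 (42.2 CPM) in WT. Wfdc17/Clec4a-positive cells held 30 (32.1 CPM) and 31 (40.8 CPM) of these. The part of dendritic-like cells, of their depth and of the gate they fell in, in the Flt3 difference was not tested. Without the cells that carried Flt3, the Csf2ra level of the gate was 207 CPM in Col1a1fspKO and 150 CPM in WT, as it was with them. Of the 8 Col1a1fspKO cells with Cd209a, only 3 carried Flt3, so other Cd209a cells stayed in. The part of dendritic-like cells in the Csf2ra difference was not tested.

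The cells that no lineage claimed, 59 in Col1a1fspKO and 58 in WT, held much of Kit and Flt3. They had 23 and 22 Kit UMIs, or 42.3 CPM (26.8 to 63.5) and 35.9 CPM (22.5 to 54.4), and 20 and 28 Flt3 UMIs, or 36.8 CPM (22.5 to 56.8) and 45.7 CPM (30.4 to 66.0). Kit was not higher there than in progenitor-like cells beyond counting error, at 1.47 times (0.910 to 2.40) over both libraries, whereas Flt3 was 3.24 times (1.78 to 6.23) as high. Short of the threshold, 25 of the 117 cells scored best as progenitor and 36 as erythroid, and the latter held 26 of the 45 Kit UMIs. Kit and Flt3 UMIs met in 6 cells of Col1a1fspKO and 7 of WT over the whole marrow, of which 3 and 5 were ungated. Il6ra had 8 and 21 UMIs in ungated cells, a ratio of 0.430 (0.165 to 1.01) in a group where 22.5% of genes were past 1.5-fold.

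**Figure D3:**
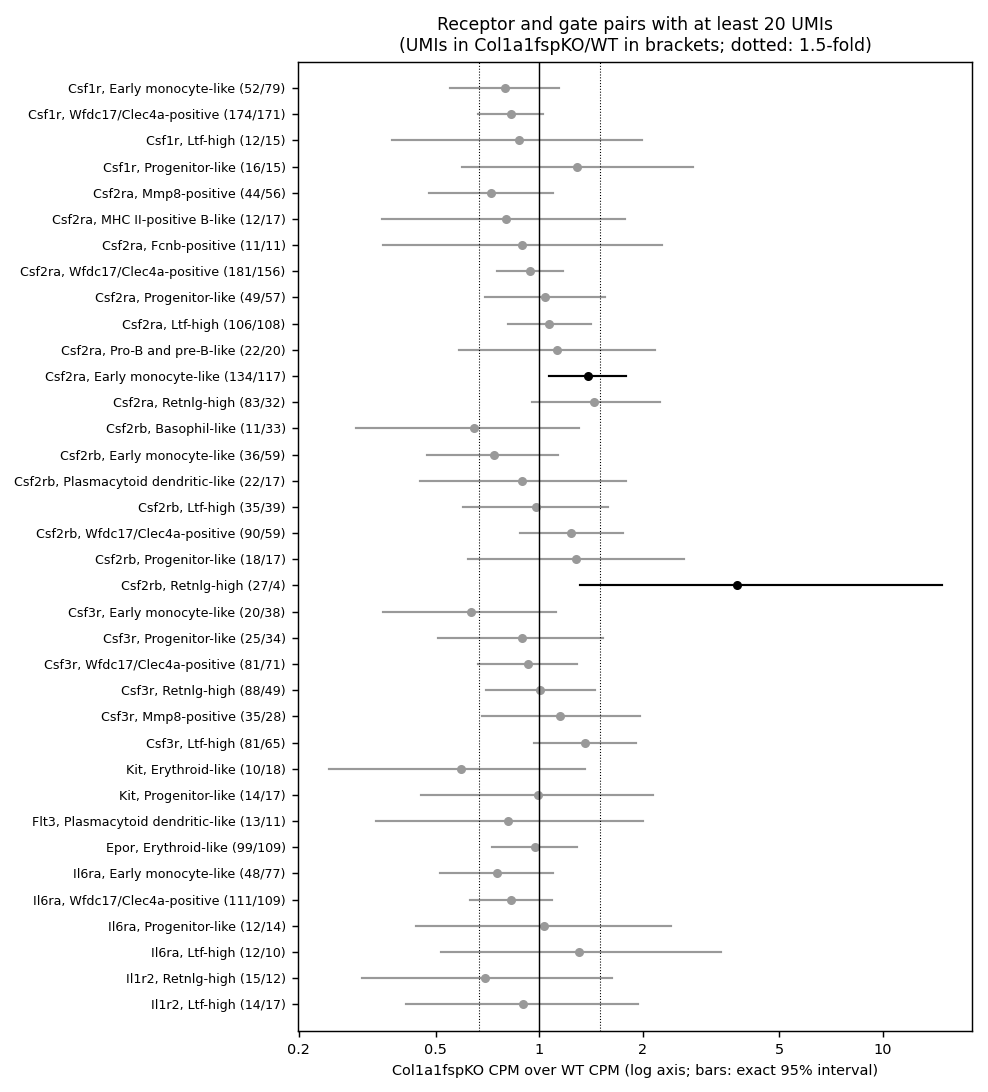
Ratio of the Col1a1fspKO level to the WT level (x axis, log scale) for the 36 pairs of receptor and gate with at least 20 UMIs (y axis, UMIs in Col1a1fspKO and WT in brackets), with bars for the exact 95% interval. Black marks the 2 pairs whose interval excluded 1, Csf2ra in early monocyte-like and Csf2rb in Retnlg-high cells.

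Counted over the 14 gates, 36 pairs of receptor and gate had at least 20 UMIs and 90 had fewer. Of the 36, 4 were past 1.5-fold: Csf2rb in Retnlg-high cells was higher in Col1a1fspKO, while Csf3r in early monocyte-like, Kit in erythroid-like and Csf2rb in basophil-like cells were lower. The last had 11 and 33 UMIs, 10 of the 33 in a single cell, in a gate where 29.1% of genes were past that size. Over all genes, 19.5% of 52609 such pairs were past that size. An interval that excluded 1 was found for 2 of the 36 and for 10.1% of all pairs. The receptors thus stood at or below the background of all genes in both counts, and neither count is a result about them.

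The other genes of these pathways came from 6 lists of ligands, receptor chains, signalling proteins, inhibitors, targets and transcription factors, 98 genes of which 87 were listed and 84 had at least 20 UMIs. Of the 84, 4 were past 1.5-fold higher in Col1a1fspKO, beside 4.57% of all genes, and 3 lower, beside 4.91%. Among the ligands 10 of 15 were not listed, Csf2, Csf3, Kitl and Epo among them. Il1b, which encodes an inflammatory cytokine, had 55 UMIs in Col1a1fspKO against 22 in WT, a ratio of 2.49 (1.5 to 4.29), and Osm, the oncostatin M gene and a target of these receptors, had 112 and 68, a ratio of 1.64 (1.2 to 2.25). Both were highest in Retnlg-high cells. Within gates, Il1b had 11 UMIs against 1 in Retnlg-high cells (18.8 and 3.06 CPM) and 14 against 2 in Ltf-high cells (8.94 and 1.17 CPM). It had 7 against 1 in MHC II-positive B-like cells (16.1 and 2.02 CPM) and 6 against 7 in Wfdc17/Clec4a-positive cells (6.41 and 9.21 CPM). Gata2, a transcription factor of immature cells and basophils, had 117 UMIs and 214, a ratio of 0.545 (0.431 to 0.686). Of those UMIs 48 and 134 lay in basophil-like cells, of which there were 8 and 19. Il6 had 8 UMIs and 20, a ratio of 0.399 (0.152 to 0.946), and of those 5 and 19 also lay in basophil-like cells. Gab2, an adaptor, had 24 and 38 UMIs, a ratio of 0.630 (0.361 to 1.08).

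**Figure D4:**
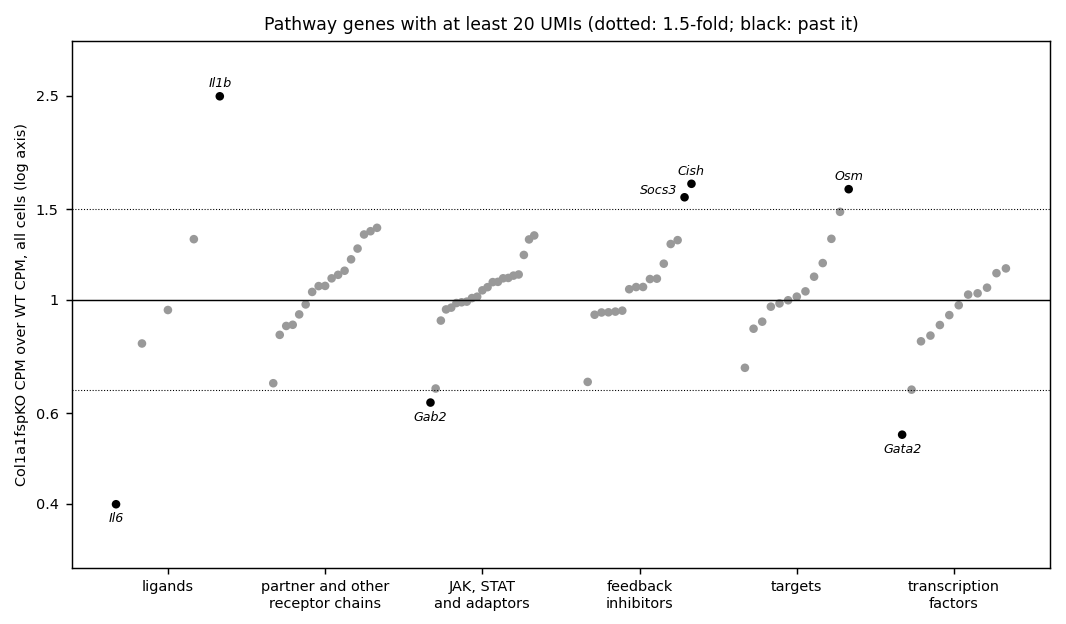
Ratio of the Col1a1fspKO level to the WT level over all cells (y axis, log scale) for the 84 pathway genes with at least 20 UMIs, in 6 lists (x axis) and ordered by ratio within each. Each point is 1 gene; dotted lines mark 1.5-fold and the 7 genes past it are named.

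The lists themselves were near equal between genotypes. The median log2 ratio was -0.07 for ligands, 0.09 for partner and other receptor chains, 0.06 for JAK, STAT and adaptor genes, 0.08 for feedback inhibitors, 0.02 for targets and -0.07 for transcription factors, against -0.04 for all genes with at least 20 UMIs. The most abundant gene of each list was not past 1.5-fold. Il1rn had a ratio of 1.31 (1.04 to 1.66), Ifngr2, a chain of the interferon gamma receptor, 1.12 (1.0 to 1.25), and Lyn, a kinase of the Src family, 1.08 (0.982 to 1.19). Ptpn6, the phosphatase that dampens these receptors, stood at 0.948 (0.875 to 1.03), the cyclin gene Ccnd3 at 1.04 (0.996 to 1.08) and Cebpb at 0.829 (0.788 to 0.873). The feedback inhibitors Cish and Socs3, which signalling through these receptors induces, had 27 and 16 and 27 and 17 UMIs, with ratios of 1.68 (0.875 to 3.34) and 1.58 (0.832 to 3.10). Socs2, of the same list, went the other way, with 79 and 114 UMIs, a ratio of 0.691 (0.512 to 0.929). Of the Cish UMIs, 14 and 4 lay in T and NK-like cells, and of the Socs2 UMIs, 34 and 78 in pro-B and pre-B-like cells.

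The 3 genes with the pattern most like each receptor were taken over the same 22 points. Csf1r went with Nupr1, Stxbp6 and Stx3 (r from 0.962 to 0.965), Csf3r with Mtus1, Msrb1 and Gda (0.955 to 0.966), and Il1r2 with Ceacam10, Scrg1 and Crispld2 (0.963 to 0.974). Csf2ra went with Tmem50b, Spi1 and Ifngr2 (0.932 to 0.944), Csf2rb with Mpeg1, Tom1 and Cers6 (0.921 to 0.938), and Il6ra with Cd300a, Asah1 and Csf1r (0.933 to 0.940). Kit, with few UMIs, had the lowest values, 0.814 to 0.826 with Cpa3, Snx14 and Gata2, and Flt3 went with Upb1, Tcf4 and Siglech (0.898 to 0.908). The 11 gates are those with at least 20 cells in each library, so basophil-like and ungated cells are not among them. Tcf4 and Siglech were also markers of the plasmacytoid dendritic-like gate.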

How the data were processed

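Marrow cells of 1 Col1a1fspKO and 1 WT library, each a pool of 2 mice, were analysed. The deposited values are UMI counts, with genes in lines and cells in columns for each library, and were not normalized. They came from Cell Ranger (version not given in the sources used here), and the submitters' processing notes name mm10 and Seurat 3.5.3. The tables hold cells already filtered, and they list 12760 and 12763 genes. A gene not listed in a library was taken as 0 there. The counts were used as deposited, with no normalization beyond CPM.

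The 9 genes, gates and pathway lists were chosen with earlier results of these data known. A cell's lineage score was the mean of log2(CPM/100 + 1) over the lineage markers, divided by its 99.5th percentile. A cell took the best of 8 lineages at a score of at least 0.3 and a margin of at least 0.1 over the next; 117 cells stayed ungated. Neutrophils were split in this order by Retnlg (10000 CPM), Mmp8 (500), Ltf (1000) and Fcnb (500), monocytes by the sum of Wfdc17, Clec4a1 and Clec4a3 (500), and B cells by MHC II genes (500). UMIs were summed per gate and library. Levels have exact Poisson intervals, ratios exact binomial ones, and shares were computed before and after thinning each cell to 2500 UMIs, which left out no cell. Scrublet called 5 doublets in each library, which were kept. Genes named beyond the 9 were, from each list, the most abundant one and those with at least 50 UMIs past 1.5-fold, and for each receptor the 3 genes most correlated in log2(CPM + 10) among 6167 genes with at least 200 UMIs. Il6, Il6st, Il1r1, Csf2rb2, Flt3l, Cish, Socs2, Socs3 and the marker genes given beside a result were named after their values were seen.

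Python 3.11.15, scipy 1.17.1, scanpy 1.11.5, R 4.3.3 and Seurat 5.3.0 were used, the last for clusters, made without the 9 genes, as alternative gates (27 components, resolution 0.8). The gating was run on cells drawn from the mean profile of each gate, and the ratio intervals on Poisson counts with known ratios. Such draws follow the model assumed, so they cannot test cells between types, doublets, free RNA or the spread between cells and mice. Gene positions came from GENCODE M21 and promoters from RefSeq, both on GRCm38, to which mm10 corresponds.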

Additional observations from a re-analysis of the deposited data

How the results depend on the processing

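No paired analysis was possible because each genotype had 1 library. For the same reason no library could be left out, and differences between mice cannot be told apart from differences between genotypes. Other settings were cluster gates, a lineage margin of 0.2, no score minimum or margin, thinned cells, cells with at least 3000 UMIs, a mean over single cells, CPM without the 20 most abundant genes, doublets left out and the mix of gates held equal; Fcnb before Ltf and Retnlg thresholds of 5000 and 20000 CPM were chosen after seeing the data. Under all that could be run, 75 of 75 receptor ratios in the leading gate stayed within the interval of the reported value. So did 54 of 54 over all cells. Of 241 values in all, 14 shares of genes and 2 receptor values moved beyond their limit. A turn of direction was counted only for a ratio past 1.5-fold whose interval excluded 1, and 0 of these turned. No ratio in a leading gate or over all cells was of that kind. Under these settings Csf2ra, Csf3r, Kit, Flt3 and Epor in their leading gates had ratios on both sides of 1. So had Csf2rb, Flt3 and Il1r2 over all cells. Csf3r in early monocyte-like cells, at 0.636, reached 1.02 with cluster gates. The cluster gates placed 73.7% of cells in the same gate, and the Csf3r level of Retnlg-high Col1a1fspKO cells was 199.8 CPM with them. The percent of genes past 1.5-fold depends on the UMI minimum by construction. With at least 50 UMIs it was 5.93 over all cells, 9.11 in erythroid-like, 11.6 in plasmacytoid dendritic-like, 10 in progenitor-like, 11.8 in Retnlg-high, 8.79 in Wfdc17/Clec4a-positive and 8.78 in early monocyte-like cells. With at least 1 UMI it was 18.7, 41.1, 55.1, 45.7, 60.5, 42.6 and 43.2 in the same order. With cluster gates no ratio could be computed for Kit in progenitor-like cells, since no cluster was made up mostly of them. For erythroid-like cells a cluster of 162 cells took the place of the gate, but at least 1 library had no Kit UMI in it. Thinned cells gave no ratio for Flt3 in early monocyte-like cells, where WT had 0 UMIs. Without a minimum or margin no ratio was possible for Il6ra in ungated cells, since none are then ungated. Sparse receptors limit what could be seen: 90 of 126 pairs of receptor and gate had under 20 UMIs.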
